A study of Mus musculus with 49 samples.

Results

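Rgs5 encodes a regulator of G protein signalling, and single cells of the embryonic mouse kidney were grouped here by the level of its transcript. Among 49 cells of the metanephric mesenchyme, 21 had Rgs5 at 10 RPKM or more (reads per length of the gene and per mapped reads in that cell) and are called Rgs5-high. Another 25 cells had Rgs5 below 1 RPKM and are called Rgs5-negative. The remaining 3 cells lay in between and were left out, so 46 of the 49 cells were compared. Both groups were selected on Rgs5, so its own values are a description and every other gene is described within the same contrast, without a test.

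The cells came from embryos at 11.5 days post coitum (Theiler stage 19) of mixed background and both sexes that carried the transgene Tg(Crym-EGFP)82Gsat, a reporter of Crym. Both Rgs5 groups share this genotype, stage and tissue, and the labels name no treatment. The dissection followed the reporter around the ureteric bud and took some cells from beyond its edge, and the samples were not pooled. No embryo or litter is named for any cell, so the 49 cells count as 1 sample: cells are not replicates of a condition, and no p-value is given. Cells were captured in microfluidic chambers that were inspected under a microscope, and no doublet caller was run.

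RGS proteins speed up GTP hydrolysis by G protein alpha subunits and so shorten signals from G protein coupled receptors. Rgs5 is widely used as a marker of pericytes and vascular smooth muscle, the mural cells that surround small vessels. In the early kidney, mural cells descend largely from the stroma, which is marked by the transcription factor Foxd1, whereas nephrons descend from the cap mesenchyme, which is marked by Six2 and Crym.

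The Rgs5 gene (gene ID 19737) lies on chromosome 1 at 171585632 to 171623657 in the mm9 build. Its promoter is shown beside those of Crabp1 and Dnm3os, the genes with the largest and the third largest difference described below. The sequences run from 250 bases before to 50 bases after the transcription start and are from RefSeq, in the build GRCm38.p6, which is not the build of the expression table. Capitals mark every match to one of 6 motifs.
Rgs5, chr1:169655251-169655550, plus strand: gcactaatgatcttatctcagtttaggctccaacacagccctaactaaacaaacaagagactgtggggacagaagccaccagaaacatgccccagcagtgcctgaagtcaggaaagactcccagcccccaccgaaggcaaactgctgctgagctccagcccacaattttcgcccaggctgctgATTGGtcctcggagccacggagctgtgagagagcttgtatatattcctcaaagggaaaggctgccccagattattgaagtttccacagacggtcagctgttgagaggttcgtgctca
Crabp1, chr9:54764498-54764797, plus strand: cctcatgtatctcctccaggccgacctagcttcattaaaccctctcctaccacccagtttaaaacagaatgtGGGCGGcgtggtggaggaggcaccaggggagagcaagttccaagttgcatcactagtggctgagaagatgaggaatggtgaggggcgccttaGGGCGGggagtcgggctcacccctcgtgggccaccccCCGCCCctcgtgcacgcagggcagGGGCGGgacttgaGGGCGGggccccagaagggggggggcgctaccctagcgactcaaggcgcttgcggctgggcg
Dnm3os, chr1:162217373-162217672, plus strand: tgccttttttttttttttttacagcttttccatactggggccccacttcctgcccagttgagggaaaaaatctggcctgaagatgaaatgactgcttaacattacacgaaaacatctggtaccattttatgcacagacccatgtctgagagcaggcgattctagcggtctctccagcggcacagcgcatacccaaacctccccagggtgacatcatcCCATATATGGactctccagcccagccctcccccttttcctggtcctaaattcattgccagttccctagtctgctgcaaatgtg

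The Rgs5 promoter held 1 CCAAT box (CCAAT), on the minus strand, a motif present in 37.4% of 32851 mouse promoters of the same length. The Crabp1 promoter held 5 GC boxes (GGGCGG), a motif present in 35.7% of promoters. The Dnm3os promoter held 1 CArG box, the site known for serum response factor, which was present in 1.63% of promoters. The other motifs searched were a forkhead motif (GTAAACA), a Meis motif (TGACAG) and the TATA box (TATAAA), held by 3.65%, 19.2% and 13.6% of promoters and by none of these 3. Both strands were searched and no 2 matches overlapped. The CCAAT, GC and CArG boxes were added to the search after the sequences had been read. A match describes the letters of the window and does not show that a factor binds there.

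Rgs5 ranged from 11.9 to 1147 RPKM in the Rgs5-high cells, with a median of 82.8 RPKM. In the Rgs5-negative cells it was listed at 0 in 20 cells and reached at most 0.481 RPKM in the other 5. The cells just inside the upper limit were cell 23 at 11.9 RPKM and cell 14 at 12.2 RPKM, and the 3 cells left out were cell 3 at 8.67, cell 7 at 6.50 and cell 38 at 1.14 RPKM. Cells 3 and 7 were the only libraries far below the others in relative depth, at 0.0346 and 0.0462 of the median cell, so neither group holds a shallow library.

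The groups were alike in depth but not in the number of genes detected. Relative depth had a median of 0.987 in Rgs5-high and 1.03 in Rgs5-negative cells. Rgs5-high cells had a median of 5599 genes at 1 RPKM or more (3862 to 6510), against 4832 (3610 to 6330) in Rgs5-negative cells. Ribosomal protein genes took 14.1% of the summed RPKM against 17.1%, and 78 of their 80 rows were lower in Rgs5-high cells, by a median of 0.33 on the log2 scale, with none reaching a difference of 1. The 49 cells carried 49 distinct index labels, and no pair of cells exceeded a Spearman correlation of 0.625. The part of detected gene number and ribosomal share in the differences below was not tested.

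Rgs5-high cells were found with and without strong Crym. Crym, the gene of mu-crystallin, which binds thyroid hormone, lay either between 0.999 and 4.92 RPKM or between 31.4 and 1480 RPKM in the 46 cells. It was at 10 RPKM or more in 8 of 21 Rgs5-high cells (38.1%, exact Clopper-Pearson 95% interval 18.1 to 61.6%) and in 19 of 25 Rgs5-negative cells (76.0%, 54.9 to 90.6%). These intervals cover counting error only. Rgs5 itself had a median of 82.8 RPKM in the 13 Rgs5-high cells with low Crym (12.2 to 1147) and of 97.9 RPKM in the 8 with high Crym (11.9 to 840). The ranges overlapped almost fully, so strong Rgs5 expression was seen on both sides of the Crym range.

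**Figure D1:**
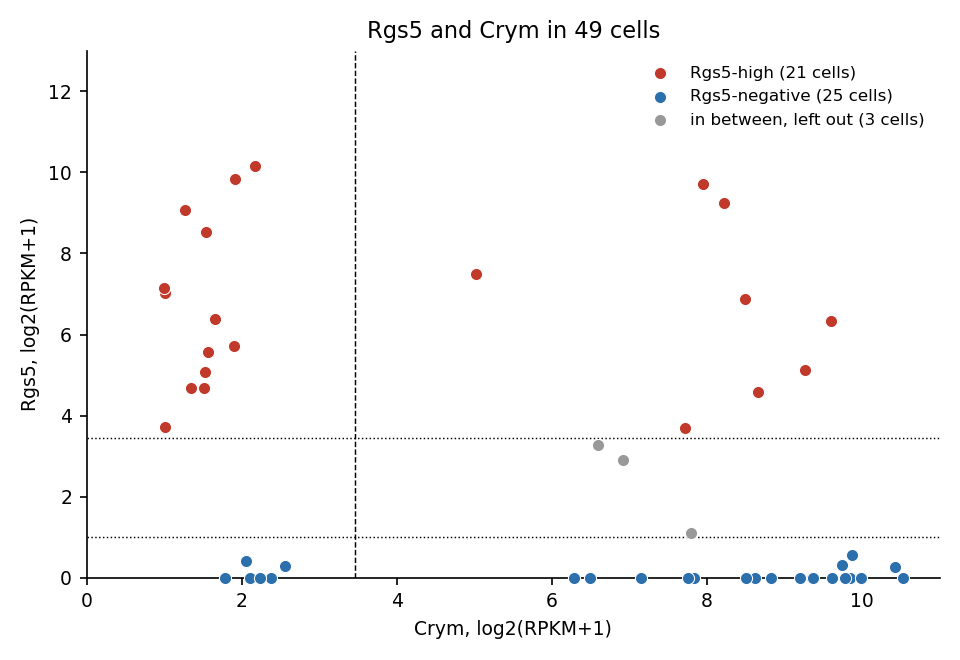
Rgs5 against Crym, both as log2(RPKM+1), in each of the 49 cells, with dotted lines at 1 and 10 RPKM of Rgs5 and a dashed line at 10 RPKM of Crym. The 13 Rgs5-high cells at the left and the 8 at the right reach similar Rgs5 levels.

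The regulators of the stromal and nephrogenic lineages split the groups in opposite directions. Foxd1 was at 1 RPKM or more in 16 of 21 Rgs5-high cells (76.2%, 52.8 to 91.8%) and in 6 of 25 Rgs5-negative cells (24.0%, 9.36 to 45.1%). Six2 was at 1 RPKM or more in 7 of 21 Rgs5-high cells (33.3%, 14.6 to 57.0%) and in 19 of 25 Rgs5-negative cells (76.0%, 54.9 to 90.6%). Foxd1 without Six2 described 12 Rgs5-high and 2 Rgs5-negative cells, and Six2 without Foxd1 described 3 and 15. Cells with both genes made up a similar share of each group, 4 of 21 and 4 of 25. At a limit of 0.1 RPKM the shares with Foxd1 were 85.7% and 60.0%, and those with both genes were 28.6% and 52.0%.

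Across all genes, differences were computed as the mean log2(RPKM+1) of the Rgs5-high cells minus that of the Rgs5-negative cells. A difference of at least 1 is called higher or lower, for genes at 1 RPKM or more in at least 5 of the 46 cells. Of 10076 genes that met this minimum, 1048 (10.4%) were higher and 290 (2.88%) were lower in Rgs5-high cells, and the median gene differed by 0.17. The scale understates the change of genes with low values. The lists below are set against these shares, and a share near them is no result about a list.

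Crabp1, a cytosolic retinoic acid binding protein, had the largest difference (5.14). It ranged from 0 to 875 RPKM in Rgs5-high cells with a median of 231 RPKM, and from 0 to 772 RPKM in Rgs5-negative cells with a median listed at 0. It was at 10 RPKM or more in 19 of 21 and 6 of 25 cells. Cell 39 was the only Rgs5-high cell with Crabp1 at 0, and the negative cells with high values, cells 1, 25, 31, 45 and 50 among them, overlapped the Rgs5-high range in full.

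Anxa2, a calcium-dependent membrane binding annexin, was found in every Rgs5-high cell, at 21.4 to 589 RPKM, with a median of 198 RPKM. In Rgs5-negative cells it ranged from 0 to 466 RPKM with a median of 0.801 RPKM (difference 4.76), and 8 of 25 cells reached 10 RPKM. S100a10, the usual partner of Anxa2 in a membrane complex, had a difference of 3.11, at 1 RPKM or more in 14 and 5 cells. Lgals1, a galactoside binding lectin, was found in all 46 cells and differed in level, with medians of 384 and 39.7 RPKM (difference 3.42).

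Dnm3os, a non-coding transcript, was at 1 RPKM or more in 18 of 21 Rgs5-high and 7 of 25 Rgs5-negative cells. It ranged from 0 to 241 RPKM with a median of 51.2 RPKM, against 0 to 131 RPKM with a median of 0.0902 RPKM (difference 3.92). Dnm3os is known as the precursor of miR-199a and miR-214, whose mature forms were not measured here. They are printed in RNA letters to show what this transcript carries, from RefSeq, with the seed (bases 2 to 8) in capitals. No pair of the 4 sequences shares a whole seed.
mmu-miR-199a-5p: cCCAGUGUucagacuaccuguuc
mmu-miR-199a-3p: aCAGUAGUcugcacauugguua
mmu-miR-214-5p: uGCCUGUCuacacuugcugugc
mmu-miR-214-3p: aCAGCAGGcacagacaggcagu

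The gene Lpar1, a receptor for lysophosphatidic acid, followed with a difference of 3.84. It was at 1 RPKM or more in 20 Rgs5-high cells (0.485 to 391 RPKM, median 94.5) and 8 Rgs5-negative cells (0 to 350 RPKM, median 0.425). The remaining genes among the 20 largest differences were Aldh1a2, which makes retinoic acid (3.63), Ldb2 (3.59), Praf2 (3.49), the ETS factor gene Fli1 (3.34), Gm16141 (3.26), the chemokine gene Cxcl12 (3.24), the nuclear factor I genes Nfib (3.22) and Nfia (3.06), Pcolce, an enhancer of procollagen processing (3.21), the protocadherin gene Pcdh18 (3.20), the lipid droplet gene Plin2 (3.13), the mitotic kinesin gene Kif20a (3.12), Tmem119 (3.11) and the receptor gene Pdgfra (3.00).

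**Figure D2:**
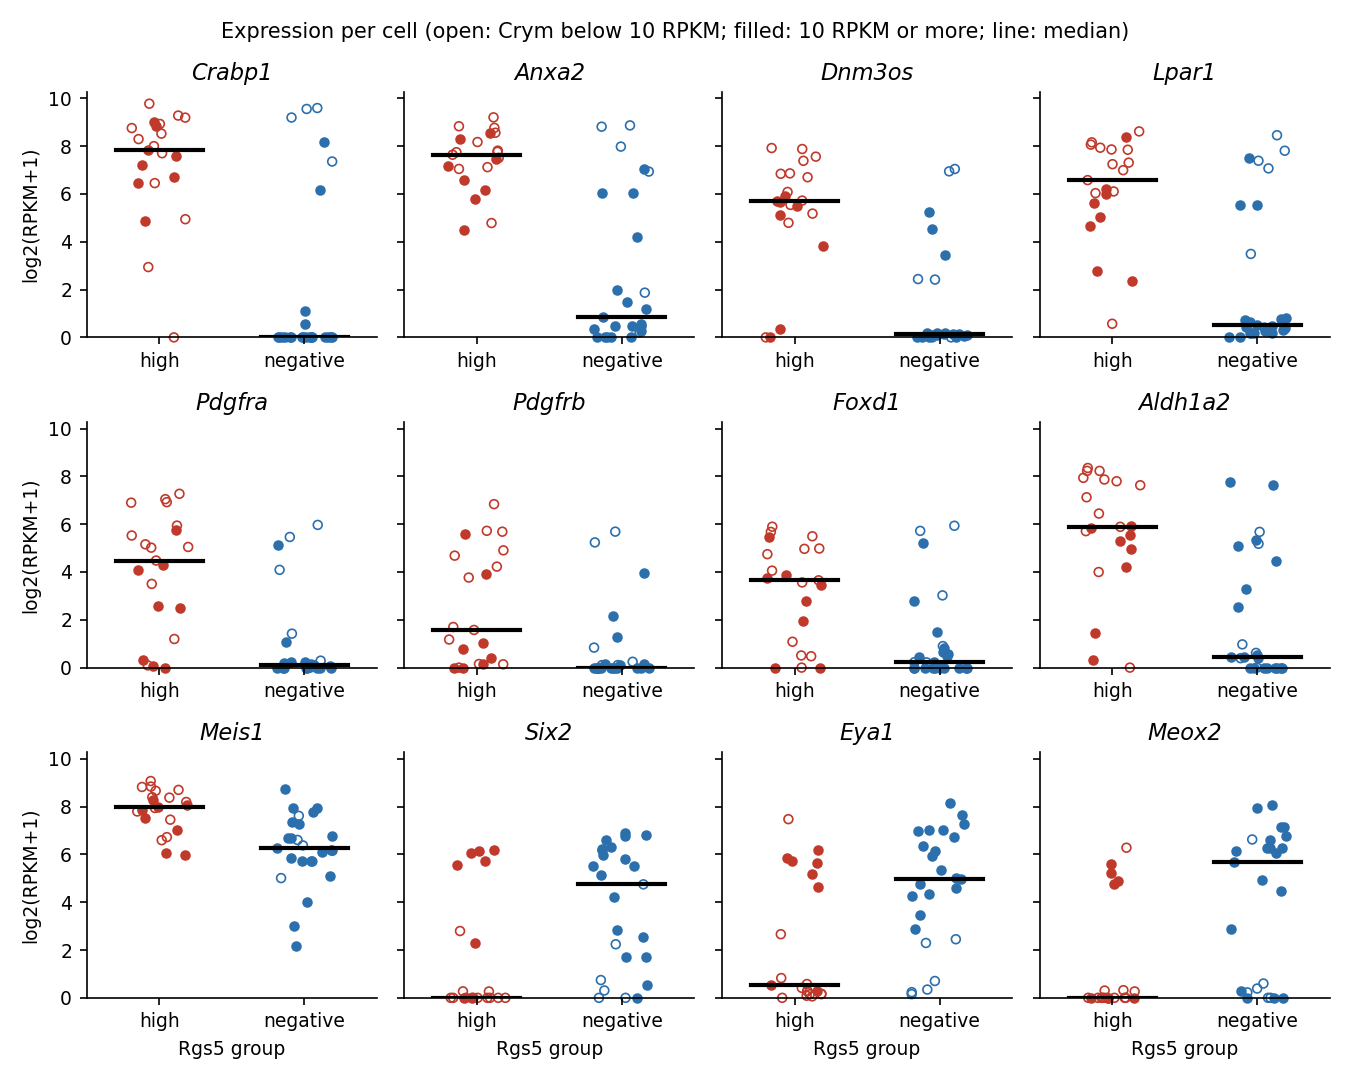
Expression of 12 genes in each cell as log2(RPKM+1), by Rgs5 group, with open points for cells with Crym below 10 RPKM, filled points for cells at 10 RPKM or more, and a line at the group median. Anxa2 lies above 4 in every Rgs5-high cell and most Rgs5-high cells with Six2, Eya1 or Meox2 above 4 are filled points, whereas Crabp1 and Anxa2 are high in filled and open points of that group.

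Stromal genes were the list with the largest shift among mesenchymal lineages. Of 31 genes on the list 29 were in the table and 27 were in at least 5 cells. Of these 27, 17 were higher and none was lower, against a background of 10.4% and 2.88%, and the median difference was 1.81 (1.63 over all 29). Every Rgs5-high cell had at least 14 of the 29 genes at 1 RPKM or more, with a median of 20, whereas the median Rgs5-negative cell had 9. In the Rgs5-negative group 6 cells reached 14 or more (cells 1, 19, 25, 31, 45 and 50).

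The stromal members differed in how they separated the groups. Foxd1 ranged from 0 to 58.5 RPKM in Rgs5-high cells with a median of 11.6 RPKM, and from 0 to 60.1 RPKM with a median of 0.175 RPKM in Rgs5-negative cells (difference 2.01). Pdgfra, the receptor that marks interstitial fibroblast precursors, ranged from 0 to 153 RPKM (median 21.3) and from 0 to 61.7 RPKM (median 0.0867), at 1 RPKM or more in 17 and 6 cells. Meis1, a homeodomain factor gene, was found in all 46 cells and differed in level, with medians of 249 and 75.9 RPKM (difference 1.63). The fibrillar collagen genes Col1a1 (2.99), Col3a1 (2.99) and Col1a2 (2.60) were at 1 RPKM or more in 20, 19 and 19 Rgs5-high cells and in 8, 7 and 6 Rgs5-negative cells. Snai2 (2.67), the Wnt antagonist gene Sfrp1 (2.61), Tcf21 (2.16) and the protocadherin gene Fat4 (2.02) were also higher. Tbx18 (0.63), Ntn1 (0.48) and Postn (0.18) stayed below a difference of 1. Dcn and Lum, proteoglycans of mature connective tissue, were found in 4 and 3 Rgs5-high cells and in no Rgs5-negative cell (0 of 25 cells, which by a limit of 3 counts allows a share of detected cells of up to 12.0%).

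Mural cell genes other than Rgs5 were detected in part only. Of 32 genes on this list 20 were in the table, and the other 12, among them Kcnj8, Higd1b and Rgs4, were not analysed here. Of the 12 genes in at least 5 cells, 6 were higher and none was lower, with a median of 0.96, but over all 20 genes the median was 0.34. The 6 were the transcription factor genes Ebf1 (2.88), shared with the stroma list, and Foxc1 (1.05), the receptor genes S1pr3 (1.76), Pdgfrb (1.70) and Ednra (1.11), and the ligand gene Angpt1 (1.10). Rgs5-high cells had 1 to 9 of the 20 genes at 1 RPKM or more (median 6), and Rgs5-negative cells had 0 to 7 (median 3).

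Pdgfrb, the receptor through which pericytes are recruited, was at 1 RPKM or more in 13 of 21 Rgs5-high cells (61.9%, 38.4 to 81.9%) and 5 of 25 Rgs5-negative cells (20.0%, 6.83 to 40.7%). It ranged from 0 to 113 RPKM with a median of 1.98 RPKM, against 0 to 50.5 RPKM with a median listed at 0. The groups overlapped, and 8 Rgs5-high cells were below 1 RPKM. The mural genes Cspg4, Abcc9 and Mcam, and the contractile genes Acta2 and Tagln, were found in few or no Rgs5-high cells. Other mural genes were found more often. Notch3, described below, was found in most Rgs5-high cells. Among cells with Crym below 10 RPKM, Cd248 was found in 7 of 13 Rgs5-high and 2 of 6 Rgs5-negative cells. Cspg4, which encodes the NG2 proteoglycan, was found in 2 Rgs5-high and 1 Rgs5-negative cells. Abcc9, a subunit of the pericyte potassium channel, was found in 0 and 1, and the adhesion molecule gene Mcam in 0 and 4. By a limit of 3 counts, 0 of 21 cells allows a share of cells at 1 RPKM or more of up to 14.3%, and it sets no limit on expression below detection. Acta2, the smooth muscle actin gene, was found in 1 Rgs5-high cell at 16.0 RPKM, and Tagln in 2 cells of each group. The Rgs5-high cells are accordingly named here by their grouping gene and not as mural cells.

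The contractile and cytoskeletal list gave 9 higher and 1 lower among 25 rows in at least 5 cells, of 28 rows in the table, with a median of 0.73 (0.59 over all 28 rows). The higher ones were cytoskeletal genes that many cell types use: both rows of caldesmon, Cald1 (2.12 and 1.73), Tpm1 (2.04), the intermediate filament gene Vim (1.97), Cnn2 (1.65), Actn4 (1.64), Csrp2 (1.60), the myosin light chain gene Myl9 (1.33) and Cnn3 (1.14). Tpm2, a tropomyosin of muscle and other cells, was lower (-2.01), with medians of 36.3 and 90.4 RPKM. The smooth muscle genes Des (0.50) and Smtn (0.06) differed little, and Srf, the factor that drives many of these genes, was found in 11 cells of each group (-0.12).

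**Figure D3:**
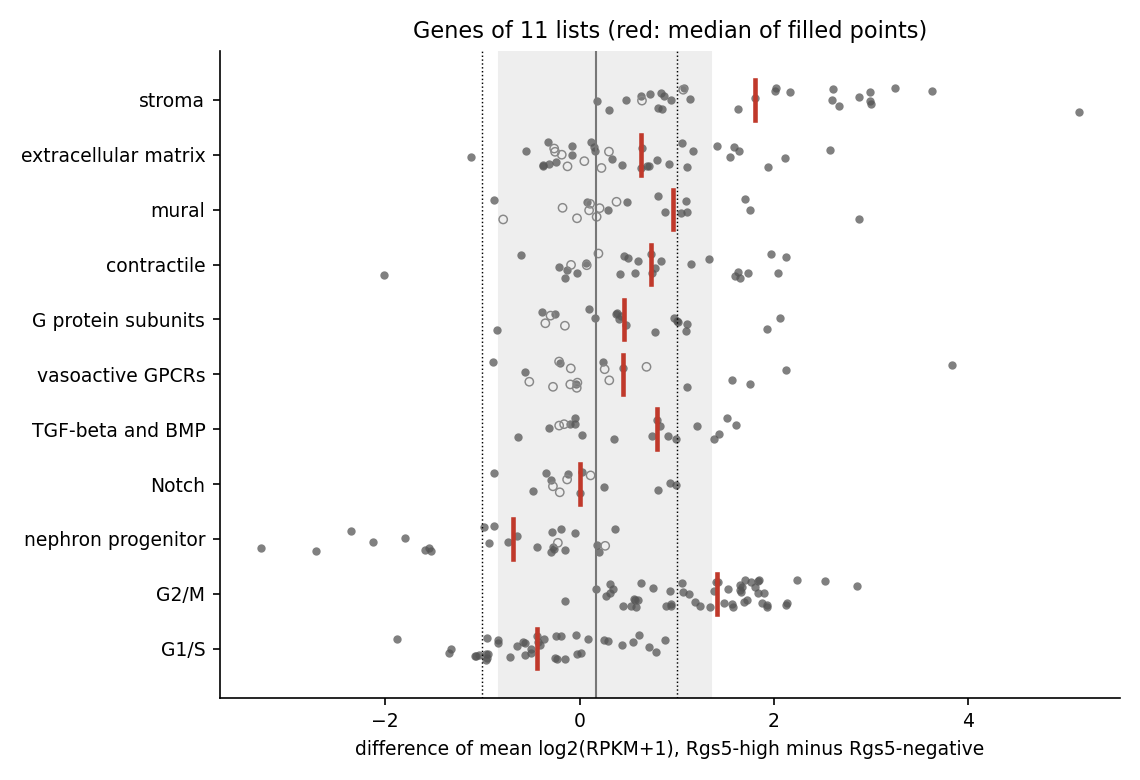
Difference of mean log2(RPKM+1), Rgs5-high minus Rgs5-negative, for each gene of 11 lists, with filled points for genes at 1 RPKM or more in at least 5 cells, open points for the others, and a red line at the median of the filled points. The grey band runs from -0.83 to 1.36, the 5th to 95th percentile of all genes, with a line at their median of 0.17, and dotted lines stand at -1 and 1.

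The G protein machinery on which RGS proteins act was described next. Of the other RGS family genes 5 were in at least 5 cells, and only Rgs12 reached a difference of 1 (1.03, 11 and 8 cells), while Rgs2 (0.46), Rgs19 (0.33), Rgs9 (0.28) and Rgs3 (0.17) did not. Of 18 G protein subunit genes 6 were higher and none lower, with a median of 0.45. Within the 5 sets of index labels in the column headers their median lay between -0.20 and 0.89, and it was below 0 in set 2. All 6 encode beta or gamma subunits: Gng10 (2.06), Gng2 (1.92), Gng12 (1.11), Gng3 (1.09), Gnb2 (1.01) and Gnb1 (1.00). The alpha subunit genes stayed below 1, with Gnai3 at 0.77, Gna11 at 0.48, Gnas at 0.43, Gnai2 at 0.38 and Gnaq at -0.26. This division did not hold among cells with Crym below 10 RPKM, where 5 of the 18 genes were higher and 1 lower. Over all 10076 genes 1768 were higher and 1123 lower there. Gnai3 then differed by 2.49, while Gnb2 (0.75) and Gng12 (0.51) stayed below 1. Gng10 (3.73), Gng2 (1.52), Gnb1 (1.15) and Gng3 (1.11) were still higher. Gnb1 was found in all 21 Rgs5-high cells at 55.4 to 673 RPKM (median 276) and in 24 Rgs5-negative cells at up to 571 RPKM (median 181).

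Receptors for vasoactive ligands included 5 higher and none lower of 11 genes in at least 5 cells, with a median of 0.44 (-0.02 over all 21 in the table). Beside Lpar1 they were the thrombin receptor gene F2r (2.12), the sphingosine 1-phosphate receptor genes S1pr3 (1.76) and S1pr2 (1.57), and the endothelin receptor gene Ednra (1.11). F2r was found in all 21 Rgs5-high cells at 2.34 to 159 RPKM (median 47.1) and in 15 Rgs5-negative cells at up to 207 RPKM (median 8.67). Ednra was found in 8 and 3 cells. Lpar4 (-0.56) and the chemokine receptor gene Cxcr4 (-0.89) lay on the other side of 0. The list's direction did not hold among cells with Crym below 10 RPKM, where its median was -0.17 with 4 genes higher and 2 lower, Lpar4 (-2.08) and Lpar6 (-1.32). Without cells 25 and 27, which held genes of other cell types, that median was 0.27. Among ligands of vessel development, Pdgfa, which signals to Pdgfra, was lower (-1.37) and was found in 1 Rgs5-high and 9 Rgs5-negative cells.

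Signalling lists differed in how far they followed Rgs5. In the TGF-beta and BMP list 5 of 17 genes were higher and none lower, with a median of 0.80. They were Tgfb2 (1.61), the receptor gene Bmpr1a (1.52) and the BMP target genes Id1 (1.43), Id2 (1.39) and Id3 (1.21), of which Id3 was in every Rgs5-high cell at 168 to 1746 RPKM. In the hedgehog list 2 of 8 were higher, the effector gene Gli3 (1.23) and the co-receptor gene Boc (1.05), while the target gene Ptch1 differed by 0.30. None of the 11 Notch genes reached a difference of 1, and their median was 0.01. Notch3, the Notch receptor of mural cells, differed by 0.80 and was found in 15 and 12 cells. Among extracellular matrix genes 10 of 30 were higher and 1 lower, with a median of 0.64 (0.30 over all 37 in the table), led by fibronectin, Fn1 (2.58), Col5a2 (2.11) and the matrix protease gene Mmp2 (1.93).

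Nephron progenitor genes lay on the other side. Of 24 in at least 5 cells none was higher and 8 were lower, with a median of -0.69 (-0.54 over all 26 in the table). The 8 were Crym (-3.28), Meox2 (-2.71), Eya1 (-2.36), Six2 (-2.13), Phf19 (-1.80), Osr1 (-1.59), Spock2 (-1.55) and Rspo1 (-1.53). Six2 ranged from 0 to 71.6 RPKM in Rgs5-high cells with a median listed at 0, and from 0 to 117 RPKM in Rgs5-negative cells with a median of 25.9 RPKM. Eya1, a coactivator that works with Six2 and its relatives, had medians of 0.467 and 30.7 RPKM, at 1 RPKM or more in 8 and 21 cells. Other progenitor regulators did not divide the groups. Wt1 (-0.27) was found in 21 and 23 cells, Sall1 (0.18) in 18 and 23, and Gdnf, the ligand that attracts the ureteric bud, in 7 and 8 (-0.05). Hox genes of groups 9 to 11, which mark the axial level of the metanephros, had a median of 0.18 over 10 genes with none past 1 in either direction.

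**Figure D4:**
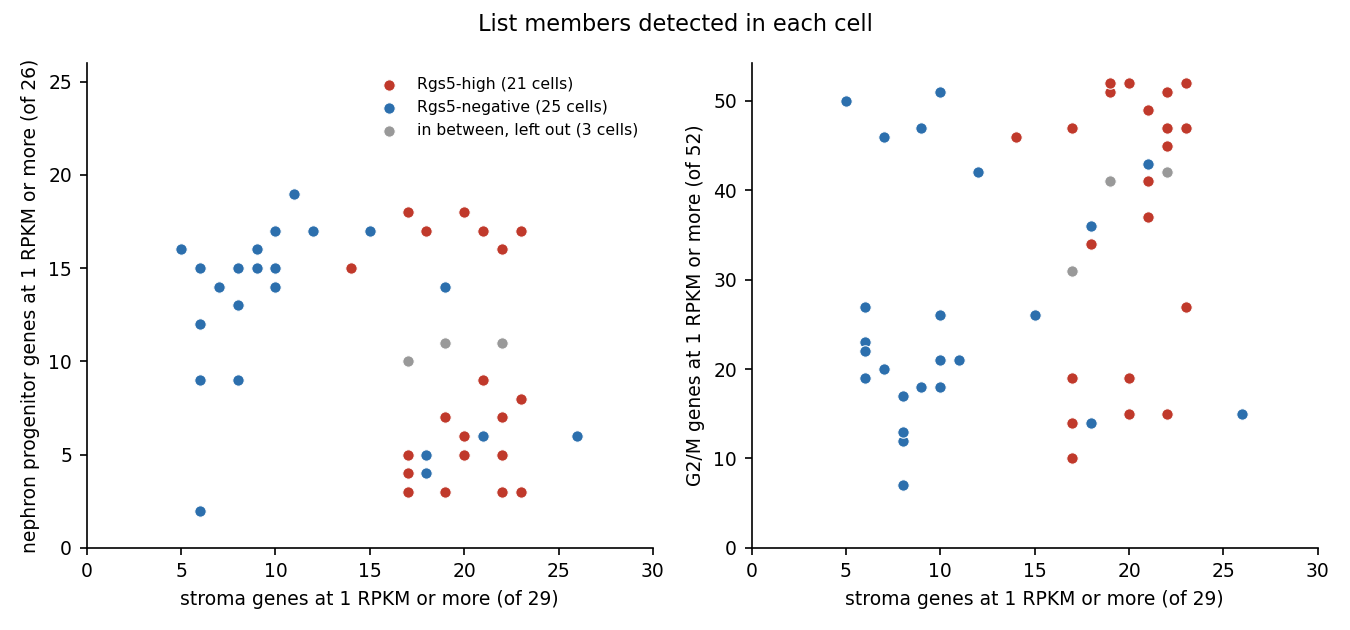
Number of stroma list genes at 1 RPKM or more in each cell, out of 29, against the number of nephron progenitor genes, out of 26 (left), and of G2/M genes, out of 52 (right). All Rgs5-high cells lie at 14 or more stroma genes, over a wide range of progenitor and G2/M genes.

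Outside the lists described above, the other genes among the 20 smallest differences were Crip2 (-3.00), the aldehyde dehydrogenase gene Aldh9a1 (-2.93), Tom1l1 (-2.92), the claudin gene Cldn9 (-2.82), the dynein gene Dync2li1 (-2.76), Igfbp5, which binds insulin-like growth factors (-2.73), the glucose transporter gene Slc2a1 (-2.38), Tmem123 (-2.35), the enolase gene Eno3 (-2.27), Hint2 (-2.24), Ppp1r8 (-2.13), the carbonic anhydrase gene Car14 (-2.12), Acot7 (-2.07), Asl (-2.04), the GDNF co-receptor gene Gfra1 (-2.02) and Nop2 (-2.01). Slc2a1 is on a list of hypoxia and glycolysis genes, of which 3 of 15 were higher and 2 lower, with a median of -0.15. Igfbp5 ranged from 0 to 59.9 RPKM in Rgs5-high cells (median 0.402) and from 0 to 274 RPKM in Rgs5-negative cells (median 28.1). Crip2 was found in 2 and 14 cells. Apart from Eno3, each of these genes was at 1 RPKM or more in a minority of Rgs5-high cells and a majority of Rgs5-negative cells. The groups overlapped for each of them.

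Because Crym differed between the groups, the contrast was repeated within each range of Crym. Among cells with Crym at 10 RPKM or more, 8 were Rgs5-high and 19 Rgs5-negative. The stroma list had a median difference of 1.50 there, with 19 of 27 genes higher. The nephron progenitor list had a median of -0.10, with 1 of 24 genes higher and 6 lower. Over all 10076 genes 1930 were higher and 442 lower. Crym, by which these cells were chosen, is itself on the nephron progenitor list. The G2/M list of cell cycle genes, described below, had a larger median than the stroma list there, 1.70, with 37 of 52 genes higher. Crabp1 was in all 8 Rgs5-high cells at 28.4 to 516 RPKM (median 170) and in 3 of the 19 Rgs5-negative cells (median listed at 0, highest 292), a difference of 6.48. Anxa2 was at 21.4 to 369 RPKM (median 118) against 0 to 131 RPKM (median 0.401), a difference of 5.16. Six2, in contrast, was in 6 of 8 and 17 of 19 cells with medians of 49.1 and 44.1 RPKM (difference -0.59). The 8 cells thus had Crym and stromal transcripts, and 6 of them had Six2. They had a median of 6141.5 genes at 1 RPKM or more (3862 to 6510), against 5235 in the 13 Rgs5-high cells with lower Crym and 4878 in the 19 Rgs5-negative cells, at a relative depth of 0.971, 1.00 and 1.03. The part of gene number, or of chambers that held more than 1 cell, in this overlap was not tested.

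Among cells with Crym below 10 RPKM, 13 were Rgs5-high and 6 Rgs5-negative, and over all genes 1768 were higher and 1123 lower. The stroma list had a median of 1.17 and the mural list of 0.57. The nephron progenitor list had a median of -0.09, with 3 of 24 genes higher and 5 lower. The G2/M median was again larger than that of the stroma list, at 1.51, with 33 of 52 genes higher. Aldh1a2 had a difference of 4.41, with medians of 197 and 0.746 RPKM, and Tcf21 one of 4.01. Crabp1 differed by 1.19, with medians of 313 and 374 RPKM in that order, and Ldb2 by -0.14. The contractile list had a median of -0.11 there: Cnn2 (-2.76), Myl9 (-1.82), Csrp2 (-1.73), 1 of the 2 rows of Cald1 (-1.60), Actn4 (-0.52), Tpm1 (-0.16) and Cnn3 (-0.13) turned to the other side of 0. Among the 6 Rgs5-negative cells, cell 25 held ureteric bud genes and cell 27 endothelial genes. Without these 2 cells the stroma median was 0.51, with 8 of 27 genes higher and 1 lower. Over all 10076 genes 2224 were higher and 1361 lower then, with a median of 0.21, so the stroma share lay close to the background. The G2/M median was 1.79, with 38 of 52 genes higher and 0 lower. Crabp1 then differed by 0.05, Pdgfrb by 0.15, Pdgfra by 1.05 and Aldh1a2 by 4.79. The contractile median was then 0.20 and Myl9 differed by 0.20, above 0 again, while Cnn2 differed by -1.72.

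**Figure D5:**
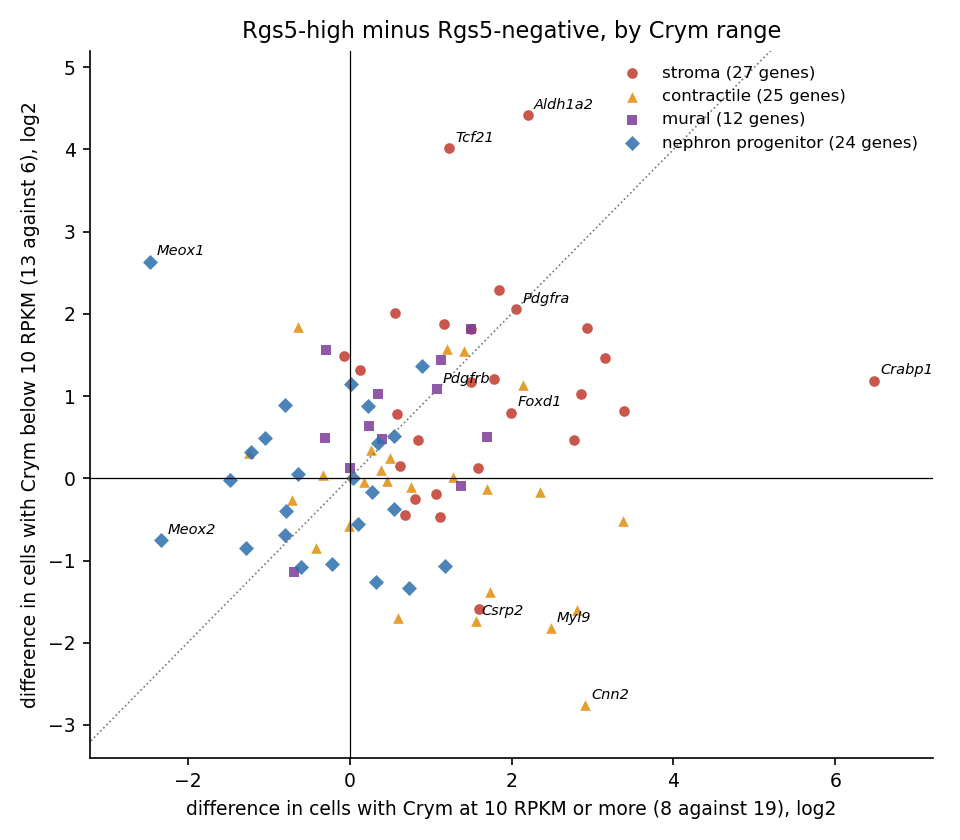
Difference of mean log2(RPKM+1) between Rgs5-high and Rgs5-negative cells for genes of 4 lists, among cells with Crym at 10 RPKM or more (horizontal) and below 10 RPKM (vertical), with a dotted line of equal differences. Most stroma genes lie right of 0 on the horizontal axis, and Cnn2, Myl9 and Csrp2 lie below 0 on the vertical axis only.

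Genes of the cell cycle also differed between the groups. Of 52 genes of the G2/M list, 34 were higher and none lower, with a median of 1.41, led by the mitotic kinase gene Aurka (2.85, from -0.60 to 6.58 within the 5 index sets), the spindle gene Tpx2 (2.53) and Top2a (2.24). Rgs5-high cells had 10 to 52 of these genes at 1 RPKM or more (median 45) and Rgs5-negative cells 7 to 51 (median 22). Of 41 G1/S genes none was higher and 6 were lower, with a median of -0.44, led by the replication helicase gene Mcm5 (-1.88). Among cells without Ccnb1, the main mitotic cyclin gene (below 1 RPKM, 6 and 14 cells), the G2/M median was 0.17, while the stroma median was 2.26 and the mural median 0.87. Among cells with Ccnb1 (15 and 11), the stroma median was 1.57 and the mural median 0.88. The G2/M median was 0.79 there, with 19 of 52 genes higher and 0 lower. Over all 10076 genes 1394 were higher and 670 lower in those cells. Ccnb1 is itself on the G2/M list, so the low G2/M median in cells without it goes in part with how those cells were chosen. The cells without Ccnb1 also differed in Crym, with medians of 1.70 RPKM in the 6 Rgs5-high and 289 RPKM in the 14 Rgs5-negative cells. The part of the cell cycle in the other differences was not tested.

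Other measures also moved with the groups. Genes of the dissociation response gave 4 higher of 11, with a median of 0.36 (from -0.12 to 1.86 within the index sets), among them the immediate early genes Fos (1.48) and Egr1 (1.35). Of 13 ureteric bud genes in the table, the most found in any Rgs5-high cell was 2, against 12 in cell 25, and of 10 endothelial genes it was 1, against 10 in cell 27. The endothelial markers Pecam1, Cdh5 and Cldn5 were below 1 RPKM in all 21 Rgs5-high cells, and the macrophage list reached at most 4.85 RPKM in sum in that group. Embryos of both sexes were used, and the 4 Y-linked genes in the table had a median of 0.62, with Eif2s3y, a translation factor gene, higher (1.23) and the helicase gene Ddx3y at 0.18. Eif2s3y was at 1 RPKM or more in 21 Rgs5-high and 20 Rgs5-negative cells, and Ddx3y in 19 and 22. Every Rgs5-high cell had at least 2 of the 4 Y-linked genes at 1 RPKM or more, and every Rgs5-negative cell at least 1. Y-linked transcripts were thus detected in each compared cell, and Xist was not analysed here. The part of these measures in the other differences was not tested. The 5 index sets each held 3 to 6 cells of either group. The stroma median lay between 1.05 and 2.78 within the sets, and the mural median between 0.48 and 1.34. The Crabp1 difference lay between 2.19 and 8.06, and the Anxa2 difference between 2.53 and 6.16. That of Aldh1a2 ran from 0.29, in set 7, to 5.45. The G2/M median lay between -0.14 and 2.63, and was below 0 in set 8, as was Aurka.

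Among the 10 genes with the highest rank correlation with Rgs5 over all 49 cells were Itm2a (Spearman's rho 0.65), Anxa2 (0.64), Pcdh18 (0.64), Nfia (0.62), Lgals1 (0.61), Srd5a3 (0.61), Col5a2 (0.60), Col3a1 (0.59) and Slc7a11 (0.59). Rgs5 was listed at 0 in 20 of these cells, and its values also set the groups. The coefficients are therefore largely another view of the same contrast, and none was computed within the Rgs5-high cells. These coefficients describe cells that share tissue, chip and library chemistry, and they are given with no p-value. Itm2a, a membrane protein gene, was found in 14 Rgs5-high and 3 Rgs5-negative cells, and Srd5a3 in 10 and 1. Of the genes nearest to Rgs5 on chromosome 1, Nuf2 (1.19) lies before it in the table, and Hsd17b7 (0.27), Ddr2 (1.14) and Uap1 (-0.12) lie after it. Ddr2, a collagen receptor gene, was found in 9 Rgs5-high cells and no Rgs5-negative cell.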

How the data were processed

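Per the labels' protocols, cells were captured on a Fluidigm C1 chip, complementary DNA was made with SMARTer chemistry, and Nextera XT libraries were sequenced on a HiSeq2500, without strand or molecular identifiers. The authors deposited RPKM per gene and cell, per the file headers. The submitters' processing notes list TopHat 1.4.1, DESeq and mm9 without their roles. For the read counter and annotation, nothing is given in the sources used here. The table holds 13093 genes above 3 RPKM in at least 1 cell, so list members below this are not analysed here. Its coordinates are given as deposited, and whether starts count from 0 or 1 is not stated. Rows that share a symbol (26 symbols) were kept apart. All value columns were used (0 left out).

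Differences are means of log2(RPKM+1), a pseudocount of 1 RPKM, in Rgs5-high minus Rgs5-negative cells (Python 3.11.15, pandas 2.3.3, numpy 2.4.6). Genes were compared at 1 RPKM or more in at least 5 cells and called at a difference of 1. With 1 sample no test was possible. Total reads are not in the table. Steps among values below 8 RPKM gave an estimate of relative depth, and both steps were tested on simulated data. Intervals are exact at 95% (scipy 1.17.1) and cover counting error only. Reads are not independent molecules.

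Genes were named by rule: the mural, contractile, stroma and nephron progenitor lists, members of other lists, the 20 largest and 20 smallest differences among genes in at least 10 cells, the 10 most like Rgs5, and the 3 nearest on each side. Not every gene so selected is reported here. Members and lists were chosen with earlier results of these data known. Alternatives changed the pseudocount, filter, scaling, limits and cells used. RefSeq promoters matched 28 of the 40 genes with the largest and smallest differences. Index set, Ccnb1 and combined Crym comparisons were added after the data were seen.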

Additional observations from a re-analysis of the deposited data

How the results depend on the processing

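Of 138 gene rows compared, none of the 103 that were called changed sign with another pseudocount, filter, scaling or Rgs5 limit, with medians in place of means, or without cells 25 and 27. Leaving out cells 3 and 7 changed nothing in the group differences, since neither is in a group. Counts of higher and lower genes moved with the scale and with the cells used: they were 2448 and 766 with a pseudocount of 0.1 RPKM, 141 and 34 with 10 RPKM, 1692 and 515 as differences of medians, and 109 and 21 at a difference of at least 2. Within Crym at 10 RPKM or more they were 1930 and 442, within lower Crym 1768 and 1123, and there without cells 25 and 27 2224 and 1361. Within index sets they ran from 2369 to 2947 and from 1033 to 2090, nearly balanced in sets 2 (2390 and 2090) and 7 (2515 and 2054), so that 53.3 to 74.0% of calls were higher, against 78.3% in all cells. The mural median was 1.71 at a pseudocount of 0.1 RPKM, 0.25 at 10 RPKM and 0.060 as a difference of medians, and the stroma median was 0.81 at 10 RPKM. At 0.1 RPKM 60.0% of Rgs5-negative cells had Foxd1 and 52.0% had both Six2 and Foxd1, and at 10 RPKM 4.00% had both.

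Signs changed mainly within lower Crym: the contractile median (-0.11), the vasoactive receptor median (-0.17), Cnn2 (-2.76), Myl9 (-1.82), Csrp2 (-1.73), a row of Cald1 (-1.60), Actn4 (-0.52), Nuf2 (-0.40), Tpm1 (-0.16), Ldb2 (-0.14), Cnn3 (-0.13), Foxc1 (-0.091), Osr1 (0.053), Tpm2 (0.30) and Phf19 (0.32). The stroma median was 0.51 there without cells 25 and 27. Within higher Crym the G1/S median was 0.37, Mcm5 0.55 and Angpt1 -0.29. With Ccnb1 at 1 RPKM or more Asl was 0.49 and Fos -0.16, and below it Ccnb1 itself was -0.19. The G1/S median was 0.54 and 0.56 in index sets 1 and 2, the stroma median 2.78 in set 2, the G protein subunit median -0.20 there, and the G2/M median -0.14 and Aurka -0.60 in set 8. These subsets hold few cells, and the cause was not tested. No paired analysis was possible because all cells form 1 group.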
